A study of Homo sapiens with 15 samples.

Results

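RNA recovered with the chromatin remodeller Brg1 was compared with input RNA in 22Rv1, an established human prostate cancer cell line. The comparison rests on 4 of the 15 libraries of the series, 2 made with the Brg1 antibody (Abcam ab110641) and 2 from input, and the members were taken by their group labels. Untreated 22Rv1 cells of all groups were fixed in 0.3% formaldehyde for 30 minutes before RNA immunoprecipitation, in which an antibody pulls its protein out of the lysate together with attached RNA. Beside them stand 3 libraries from a non-specific IgG (Sigma I5006) and 2 from an antibody against the splicing factor Sfpq (Genetex GTX114209) in the same line, and 2 Brg1 and 2 input libraries from LNCaP, a second prostate cancer line. No treatment or genetic change is named for any group, each group comes from 1 line, and the labels do not say whether replicates A and B are separate cultures, so that p-values measure only the spread between these libraries.

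Brg1, encoded by SMARCA4, is one of the alternative ATPases of the SWI/SNF complexes, which move nucleosomes at promoters and enhancers. It works in the nucleus, where RNA is transcribed, spliced and in part retained, whereas most messenger RNA of ribosomal proteins and metabolic enzymes lies in the cytoplasm and mitochondrial transcripts lie inside the organelle. SCHLAP1, the long non-coding RNA that the series is about, has been linked to SWI/SNF in prostate cancer.

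The deposited table holds 22542 rows, 11687 with the suffix .primary and 10855 without it. The suffix is not explained in the sources used here, and 8246 genes have a row of each kind. Values were turned into shares, a row's reads per 1000000 recovered reads of the library (RPM), from 47531308 and 45259907 reads in Brg1 replicates A and B and 47871438 and 16037423 reads in input replicates A and B. Across rows, Spearman's correlation was 0.966 between the Brg1 libraries, 0.979 between the inputs and 0.729 to 0.780 between a Brg1 library and an input. Of the 7 luminal prostate markers examined, 4 had a row (TMPRSS2, HOXB13, KRT8 and KRT18), and KLK3, KLK2 and FOLH1 had none. The summed shares were 43.3 and 60.0 RPM in Brg1 and 73.3 and 83.6 in input, over both kinds of row. TMPRSS2 had a .primary row alone, which was higher in Brg1, at 10.6 and 8.86 RPM against 4.83 and 4.49. The other markers had rows without the suffix. HOXB13 and KRT18 were lower in Brg1, and KRT8 overlapped, at 8.92 and 16.9 RPM against 16.7 and 14.1. Of the 13 markers examined of basal cells, leukocytes, fibroblasts and endothelium, only COL1A1 (at least 15.2 RPM in each library) had a row.

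Brg1 libraries held more of their reads in .primary rows than input libraries did. The .primary rows took 65.7% and 62.7% of the reads in Brg1 replicates A and B and 38.2% and 34.8% in input replicates A and B. The groups did not overlap, and the means of 64.2% ± 2.07 (SD, n = 2) and 36.5% ± 2.44 (SD, n = 2) differed by 27.7 percentage points, with an exact two-sided permutation p of 0.333, which is the smallest that 2 libraries against 2 can give. IgG replicates A and B had 62.5% and 59.5%, close to the Brg1 libraries, while IgG replicate C, with 490879 reads against 4424105 and 1751329 in A and B, had 39.1%, close to input. The Sfpq libraries had 27.5% and 33.4%. In LNCaP the share was 50.8% and 60.5% in Brg1 and 42.3% and 35.2% in input, and 66.9% and 66.8% in IgG libraries of 22184 and 46297 reads.

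Row by row, Brg1 was higher than input mostly in .primary rows and lower mostly in rows without the suffix. Of 22537 rows tested, Brg1 exceeded input in 6581 (29.2%) and fell short of it in 9505 (42.2%) (limma on log2 of the share plus 0.5, Benjamini-Hochberg adjusted p under 0.05). Among 11682 .primary rows, 6299 (53.9%) were higher and 1322 (11.3%) lower. Their median log2 difference was 0.54. Among 10855 rows without the suffix, 282 (2.6%) were higher and 8183 (75.4%) lower, around a median of -0.80. Scaling to factors that balance the rows (trimmed mean of M values, TMM) raised the median of all rows by 0.23 on the log2 scale and turned the split to 7748 higher and 7005 lower. At the authors' own scaling the median of all rows was 0.43 lower and the split was 1913 higher and 7976 lower. In that fit 0.5 was added to the deposited values, not to RPM. Those values total 27148052 to 50072865 per Brg1 or input library, so that the 0.5 weighed less and changed together with the scaling. Shares taken within each kind of row (within-type shares), which set both kinds to equal totals, gave 2655 .primary rows higher and 4835 lower and 2544 rows without the suffix higher and 2481 lower. Without input replicate A, 662 .primary rows were called lower.

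These calls depend on which libraries estimate the spread. With all 9 libraries of 22Rv1 in a single limma fit, the same differences gave 5 .primary rows higher and 0 lower (37 at an unadjusted p under 0.05), and 2 rows without the suffix higher and 6 lower. The median SD of a row between replicates, on the log2 scale, was 0.13 in Brg1, 0.12 in input and 0.16 in Sfpq but 1.84 in IgG. With Brg1, Sfpq and input in a single fit and IgG left out, an alternative added after the data were seen, 5947 and 1108 .primary rows and 262 and 8039 rows without the suffix were called higher and lower.

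**Figure D1:**
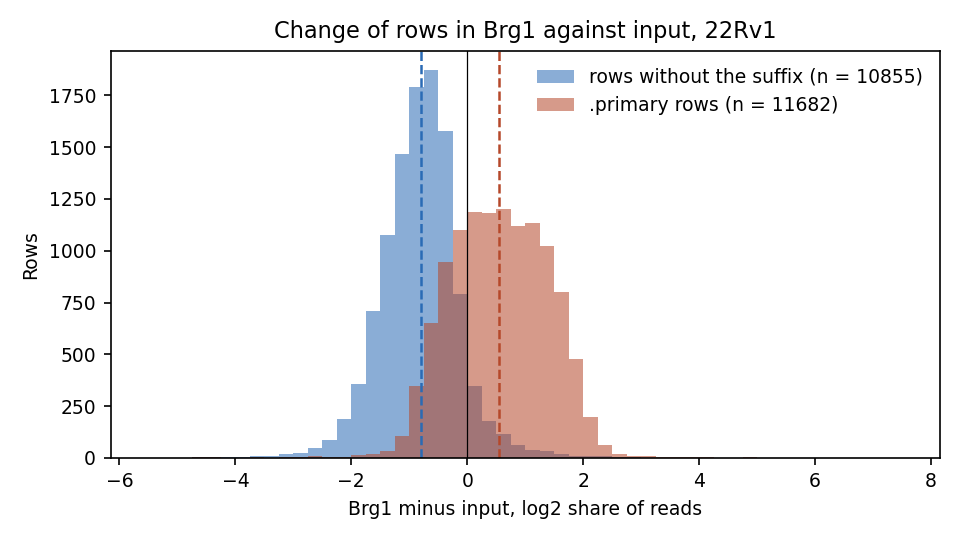
Histogram of the log2 difference in share of reads, Brg1 minus input, for the 11682 .primary rows and the 10855 rows without the suffix that were tested, with dashed lines at the medians. The .primary rows centre at 0.54 and the rows without the suffix at -0.80.

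The same contrast held within genes. For 8245 genes with both rows, the log2 ratio of the .primary row to the row without the suffix was compared between Brg1 and input, a measure that does not depend on the total of the library. The ratio was higher in Brg1 in 5737 genes (69.6%) and lower in 80 (0.97%), and the median difference was 1.13 (limma, Benjamini-Hochberg adjusted p under 0.05). With all 9 libraries in a single limma fit 0 genes were called in either direction, with 467 higher and 2 lower at an unadjusted p under 0.05, and without input replicate A 49 were called lower.

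PMEPA1, an androgen-induced regulator of TGF-beta signalling, had a .primary row of 188 and 205 RPM in Brg1 and 28.8 and 30.2 in input, while its other row had 1.01 and 1.08 RPM in Brg1 and 24.8 and 27.9 in input. Its .primary row thus held 99.5% of the gene's reads in each Brg1 library, against 53.8% and 52.0% in the inputs, and the ratio was higher by 6.83 on the log2 scale (SE 0.28, limma adjusted p = 2.3e-15). EFNA5, an ephrin ligand, and TSHZ3, a zinc-finger homeobox protein, changed the same way, by 6.11 (SE 0.29) and 5.74 (SE 0.32). For EFNA5, IgG replicates A and B were like Brg1, with 639 and 438 RPM on the .primary row beside 590 and 602 in Brg1 and 129 and 126 in input, and with 99.9% and 100% of the gene's reads there. The .primary row of PMEPA1 held 140, 68.5 and 40.7 RPM in IgG and that of TSHZ3 held 43.2, 166 and 93.7, against 153 and 147 in Brg1. MED26, a subunit of the Mediator complex, had no .primary read in either input and 69.7 and 78.7 RPM in Brg1. Against a floor of 3 reads per library its .primary row was at least 594-fold higher in Brg1, and its other row was lower, at 4.80 and 5.30 RPM against 13.5 and 11.9. IgG was uneven for MED26.primary, with 0 in replicates A and C and 114 RPM in B, and the difference from IgG did not pass (limma adjusted p = 0.27). DNAL4, a dynein light chain, was the other gene among the 5 largest rises of the ratio, and its .primary row held 85.0% and 85.2% of its reads in Brg1 and 9.72% and 0% in input. In IgG DNAL4.primary was above Brg1, at 38.7, 23.4 and 18.3 RPM beside 9.43 and 10.2.

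The 5 largest falls of the ratio were ZGPAT, RGPD6, SARS2, RPL13 and HNRNPU. RPL13, a protein of the large ribosomal subunit, had no .primary read in either Brg1 library and 12.7 and 10.5 RPM in the inputs, so that input was at least 179-fold higher against the floor of 3 reads per library. HNRNPU, a nuclear scaffold and RNA-binding protein, had .primary rows of 3.49 and 1.61 RPM in Brg1 and 11.3 and 13.4 in input. RGPD6 belongs to a family of near-identical copies whose reads could be split between rows, and its values are uncertain.

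**Figure D2:**
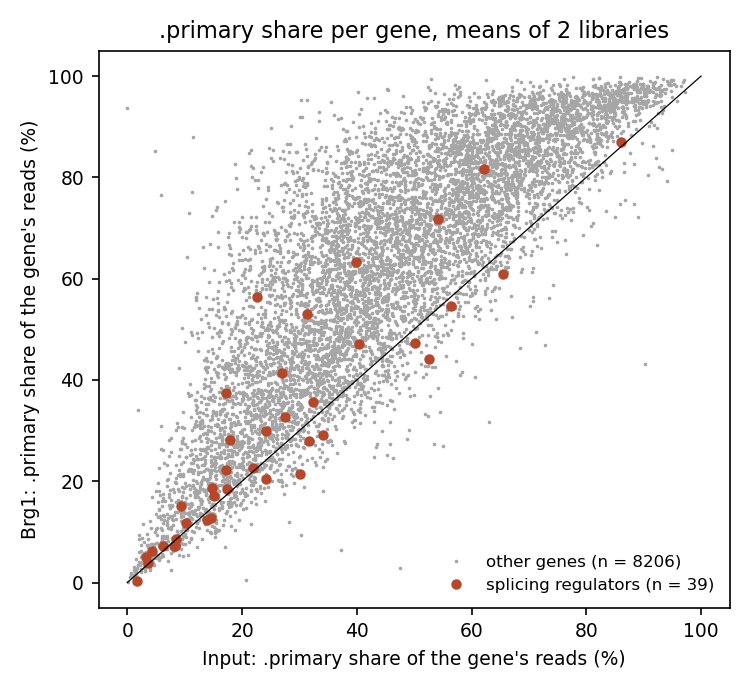
Percent of a gene's reads on its .primary row, mean of the 2 inputs on the horizontal axis and of the 2 Brg1 libraries on the vertical axis, for 8245 genes, with the diagonal drawn. Most genes lie above the diagonal, and the 39 splicing regulators are in red.

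The change of .primary rows was graded with the length of the gene in the genome. RefSeq gave a span for 10466 of 11682 .primary rows. Of .primary rows of genes under 5 kb, 20.8% were higher and 25.5% lower in Brg1, and their median log2 difference was -0.12. The median was 0.26 at 20 to 50 kb and 1.07 at 100 to 250 kb. Over 500 kb it was 1.46, and 266 of 271 rows were higher. Rows without the suffix went from a median of -1.11 under 5 kb to -0.29 over 500 kb. Across .primary rows, Spearman's correlation of span with the log2 difference was 0.506, but span also correlated with the mean share at 0.516, and the rows share libraries and depth, so that these are descriptions.

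Among genes over 500 kb, the .primary rows with the highest shares were GPC6, TTC28, AGAP1, BCAS3 and AFF3, chosen after their values were seen. GPC6, a heparan sulphate proteoglycan of the cell surface, had 1730 and 1599 RPM in Brg1 and 389 and 365 in input, with no overlap and a log2 difference of 2.14 (SE 0.12, limma adjusted p = 5.93e-09). AFF3, a nuclear transcription elongation scaffold, differed by 2.01, AGAP1, a GTPase-activating protein of endosomes, by 1.92, BCAS3 by 1.34 and TTC28 by 0.88 on the same scale. GPC6.primary had 1313 and 1587 RPM in IgG replicates A and B, just below Brg1, and 699 in IgG replicate C, above both inputs. None of the 5 passed the test of Brg1 against IgG.

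Reads in .primary rows of genes of 100 kb and over showed the same side of IgG. These 2741 rows held 33.8% and 32.0% of the reads in Brg1, 15.4% and 13.9% in input, 29.3%, 27.6% and 15.4% in the IgG libraries (A to C), and 11.1% and 13.3% in Sfpq. The Brg1 libraries were above all others, with IgG replicates A and B next to them and IgG replicate C at the level of input. What sets the gradient was not tested.

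**Figure D3:**
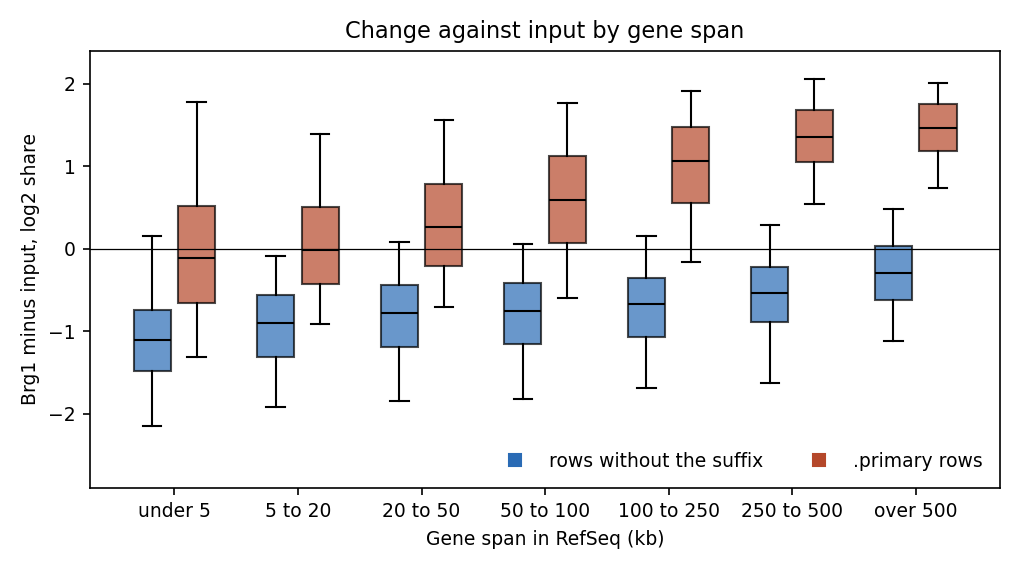
Log2 difference in share, Brg1 minus input, by the span of the gene in RefSeq (kb), with boxes for the quartiles, a line for the median and whiskers from the 5th to the 95th percentile. In .primary rows the median goes from -0.12 under 5 kb to 1.46 over 500 kb, and rows without the suffix lie below 0 throughout at the median.

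SMARCA4, which encodes Brg1 itself, had the largest rise among rows without the suffix. Its row (chr19:10961030-11062273 in GRCh38.p14, a protein-coding gene) held 12446 and 16356 RPM in Brg1, against 310 and 296 in input, 262, 265 and 308 in IgG and 486 and 492 in Sfpq. Both Brg1 libraries lay far above every other library, and the mean share was 47.5-fold that of input. The log2 difference was 5.56 (SE 0.16, adjusted p = 2.97e-11) from input, 5.68 (adjusted p = 6.68e-05) from IgG and 4.87 (adjusted p = 0.000705) from Sfpq, all by limma. It ran from 5.13 to 6.38 over the alternatives and was called under each of them, including the fit of all 9 libraries. In LNCaP the row held 12763 and 10406 RPM in Brg1 and 211 and 218 in input. No .primary row of SMARCA4 was analysed here.

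Of 27 rows without the suffix for subunits of the complexes, SMARCA4 alone was higher (3 rows were under TMM scaling) and 18 (66.7%) were lower, beside 75.4% of all such rows, with a median of -0.66 beside -0.80. Over all .primary rows 53.9% were higher and 11.3% lower. Of 20 .primary rows for these subunits, 7 (35%) were higher and 1 (5%) lower, at a median of 0.11 beside 0.54. With within-type shares these counts were 9 and 7, and 2 and 13. ARID1A, the DNA-binding subunit of the canonical BAF complex, was lower, at 141 and 154 RPM in Brg1 and 220 and 232 in input (log2 difference -0.61, adjusted p = 0.000215), a direction that turned when shares were taken within rows of its kind. SMARCA2, the alternative ATPase, had 51.3 and 60.7 RPM against 50.6 and 45.6, a log2 difference of 0.21 (95% interval -0.07 to 0.50, adjusted p = 0.165) that was called under TMM scaling (0.45) and turned negative at the authors' scaling. ARID1B.primary, of the paralogue of ARID1A, was higher by 1.36 on the log2 scale, at 606 and 640 RPM against 255 and 230 in input. DPF3.primary, of a histone-reading subunit, was higher by 1.31, at 134 and 140 RPM in Brg1. IgG replicates A to C held 391, 605 and 141 RPM of ARID1B.primary and 97.0, 123 and 53.0 of DPF3.primary. No .primary row of these subunits passed against IgG. Both genes span 250 to 500 kb, a class in which 95.6% of .primary rows were higher than input. Of 23 rows without the suffix for other remodellers 17 (73.9%) were lower and none higher, close to the 75.4% lower over all such rows, at a median of -0.43 beside -0.80. This count depended on the scaling, since 5 were lower and 1 higher under TMM and 1 lower and 21 higher with within-type shares. Of 19 .primary rows 6 (31.6%) were higher and 5 (26.3%) lower (1 and 15 with within-type shares), beside the 53.9% and 11.3% of all .primary rows. Among them CHD7.primary was higher by 1.45 and SRCAP.primary lower by -0.98.

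Long non-coding RNAs divided. Of 14 rows without the suffix from a list of named long non-coding RNAs, 5 (35.7%) rose and 6 (42.9%) fell in Brg1 (7 and 3 with within-type shares). Over all rows of that kind 2.6% were higher and 75.4% lower. The median of the list was -0.05 beside -0.80. Of the 7 .primary rows of the list 2 were higher and 4 lower (2 and 1 under TMM scaling), beside 53.9% and 11.3% of all .primary rows. Their median was -0.50 beside 0.54 over all .primary rows. The 2 that were higher were SCHLAP1.primary and DLEU2.primary, the latter by 1.02 (not called with within-type shares or at the authors' scaling), and GAS5.primary was lower by -0.74. KCNQ1OT1, an antisense transcript that silences its imprinted neighbours in cis (chr11:2608328-2699994), held 414 and 392 RPM in Brg1 and 65.1 and 65.8 in input, a log2 difference of 2.61 (SE 0.11, limma adjusted p = 1.02e-09). Its IgG libraries held 251, 254 and 69.3 RPM, all below Brg1, and the difference from IgG did not pass (1.29, adjusted p = 0.24). MALAT1, an abundant RNA of nuclear speckles (chr11:65497738-65506516), held 6593 and 5801 RPM in Brg1 and 2614 and 2738 in input, a difference of 1.21 (SE 0.16, adjusted p = 1.16e-05). NEAT1, the scaffold of paraspeckles (chr11:65422798-65445540), held 1095 and 1088 RPM in Brg1 and 447 and 379 in input, a difference of 1.41 (SE 0.12). IgG replicates A and B, at 1478 and 1537 RPM, were above Brg1 for NEAT1. For MALAT1 the IgG libraries, at 4616, 4420 and 2449 RPM, lay below Brg1.

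NORAD, a cytoplasmic RNA that sequesters Pumilio proteins, was lower, at 70.0 and 75.1 RPM in Brg1 and 344 and 277 in input, a difference of -2.08 (SE 0.13, limma adjusted p = 7.92e-09). OIP5-AS1 and TUG1 were lower by -1.65 and -0.85 on the log2 scale, and GAS5, a host of small nucleolar RNAs, by -1.42. IgG replicate C was high for these RNAs, with 805 RPM for NORAD and 326 for TUG1.

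SCHLAP1 had a .primary row alone (chr2:180692104-180916939). It held 62.4 and 67.5 RPM in Brg1, 16.6 and 13.8 in input, 40.5, 20.6 and 65.2 in IgG and 15.1 and 23.5 in Sfpq. Brg1 was above both inputs and both Sfpq libraries, and IgG replicate C lay within the Brg1 range. The difference from input was 2.06 (SE 0.15, limma adjusted p = 3.17e-08), among .primary rows that were higher in 53.9% of cases. In the span class of SCHLAP1, 100 to 250 kb, 82.1% of .primary rows were higher, at a median of 1.07. Where a gene had a .primary row alone, 69.1% were higher. By limma, the difference from IgG was 0.77 (adjusted p = 0.51) and from Sfpq 1.76 (adjusted p = 0.23). In LNCaP SCHLAP1 was far more abundant, with 3917 and 4375 RPM in Brg1 and 1736 and 1443 in input.

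**Figure D4:**
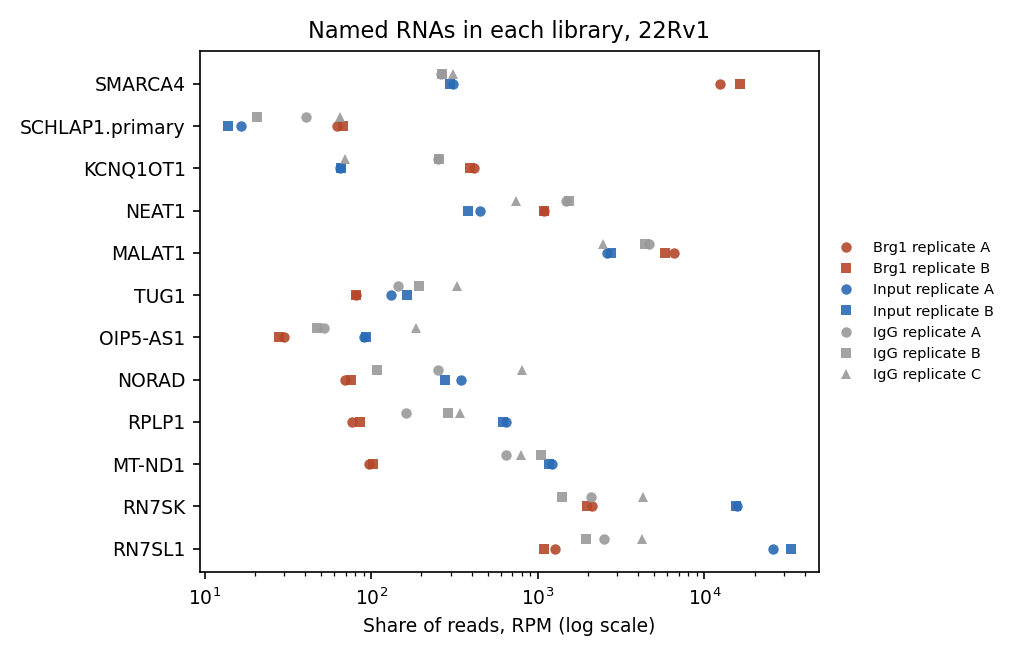
Share of each named RNA in every Brg1, input and IgG library of 22Rv1, in RPM on a log axis, with the colour giving the group and the symbol the replicate. SMARCA4 in Brg1 stands at 12446 and 16356 RPM beside 262 to 310 in input and IgG, and RN7SL1 at 1082 and 1259 beside 25673 and 32888 in input.

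Broader classes of non-coding transcripts were mostly higher in .primary rows and divided in rows without the suffix. Of 163 .primary rows of LINC genes 136 (83.4%) were higher and 6 (3.68%) lower, at a median of 1.23, and of 250 antisense .primary rows 172 (68.8%) were higher and 12 (4.8%) lower, at a median of 1.03, beside 53.9% higher and 11.3% lower over all .primary rows. With within-type shares these counts were 64 and 24 for LINC genes and 81 and 47 for antisense rows. The LINC .primary rows summed to 0.438% and 0.399% of the reads in Brg1, 0.187% and 0.177% in input and 0.874%, 0.733% and 0.439% in IgG. No IgG library lay below Brg1. For antisense .primary rows the sums were 0.745% and 0.696% in Brg1, 0.357% and 0.343% in input and 0.584%, 0.615% and 0.292% in IgG. Against IgG, 20 LINC rows were called higher and 2 lower, and 40 antisense rows higher and 0 lower. Only 22 LINC genes and 47 antisense genes had both kinds of row. Over the 3437 .primary rows of genes with 1 kind of row, 69.1% were higher and 4.42% lower, at a median of 1.04. The antisense .primary rows were close to these values. Of 42 LINC rows without the suffix 12 (28.6%) were higher and 15 (35.7%) lower, at a median of -0.20, and of 77 antisense rows without it 16 (20.8%) were higher and 34 (44.2%) lower, at a median of -0.50, beside 2.6% and 75.4% over all such rows. With within-type shares these were 22 and 5, and 30 and 6. LINC01456.primary was higher, at 146 and 143 RPM in Brg1 against 23.4 and 26.9 in input (limma adjusted p = 3.5e-09). FGD5-AS1, in a row without the suffix, was lower by -3.05, at 4.54 and 8.73 RPM against 52.2 and 59.8. Antisense rows could share reads with the opposite gene where the counting did not use strand, which the sources used here do not state.

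Of 13 .primary rows of microRNA host transcripts, 11 (84.6%) were above input in Brg1 and 1 (7.69%) below. Over all .primary rows these were 53.9% and 11.3%, and the median was 1.70 for the hosts beside 0.54. Of 8 host rows without the suffix 3 (37.5%) were higher and 2 (25%) lower, at a median of 0.15. Over all rows without the suffix 2.6% were higher and 75.4% lower, at a median of -0.80. A microRNA is cut from a longer primary transcript, and the rows measure that host transcript, not the mature RNA. Mature microRNAs of 4 hosts are shown because these hosts were higher and each carries a pair with a shared seed. Sequences are from RefSeq on GRCh38.p14, which held them for 18 of 19 hosts, 5′ to 3′ with the seed (bases 2 to 8) in capitals.
hsa-let-7a-5p: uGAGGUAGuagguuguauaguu
hsa-let-7b-5p: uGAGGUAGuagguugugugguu
hsa-miR-181a-5p: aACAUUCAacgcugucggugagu
hsa-miR-181b-5p: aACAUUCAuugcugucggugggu
hsa-miR-29b-3p: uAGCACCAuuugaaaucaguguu
hsa-miR-29c-3p: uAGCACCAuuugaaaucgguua
hsa-miR-221-3p: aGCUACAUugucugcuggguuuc
hsa-miR-222-3p: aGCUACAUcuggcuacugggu
MIRLET7BHG.primary, the host of let-7a and let-7b (chr22:46085997-46113928), held 204 and 190 RPM in Brg1, 38.4 and 34.7 in input, and 155, 114 and 65.2 in IgG. Brg1 was above every IgG and input library, and the difference was 2.42 (SE 0.12, limma adjusted p = 3.19e-09) from input and 0.90 (adjusted p = 0.27) from IgG. MIR181A1HG.primary, the host of miR-181a and miR-181b, held 15.9 and 13.3 RPM against 2.76 and 2.68 in input, a difference of 2.23 (SE 0.29). MIR29B2CHG and MIR222HG, in rows without the suffix, were higher by 1.31 (SE 0.15) and 0.62 (SE 0.21), and neither was called at the authors' scaling, nor was MIR222HG without Brg1 replicate A or without either input.

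Small structured RNAs, which are made by RNA polymerase III or as parts of small ribonucleoproteins, were scarce in Brg1. Of 21 rows 18 (85.7%) were lower and none higher, beside 75.4% lower over all rows without the suffix, with a median of -1.29 beside -0.80. With within-type shares 8 were lower and 1 higher. Their sum was 0.637% and 0.549% of the reads in Brg1, against 6.74% and 7.54% in input, 0.803%, 0.563% and 1.32% in IgG and 0.316% and 0.271% in Sfpq, so that all precipitates lay below both inputs. RN7SL1, the RNA of the signal recognition particle (chr14:49586580-49586878), held 1259 and 1082 RPM in Brg1 and 25673 and 32888 in input, a log2 difference of -4.64 (SE 0.19, limma adjusted p = 5.99e-10). RN7SL2 and RN7SL3, near-identical copies between which reads could be split, differed by -4.43 and -4.19. RN7SK, which holds the elongation factor P-TEFb inactive, differed by -2.92, at 2126 and 1978 RPM against 15624 and 15418. RPPH1, the RNA of RNase P, differed by -3.07, and RMRP, that of RNase MRP, by -1.12. None of these was lower in Brg1 than in IgG by the test.

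Mitochondrially encoded RNA was lower in Brg1 than in every other group. All 18 rows were lower than input, with a median of -3.03, all 18 were lower than IgG, and 13 were lower than Sfpq (limma, Benjamini-Hochberg adjusted p under 0.05), where 1.66% and 1.91% of all rows without the suffix were. Their sum was 0.199% and 0.227% of the reads in Brg1, 1.62% and 1.94% in input, 1.23%, 2.14% and 2.87% in IgG and 1.67% and 1.66% in Sfpq, with no overlap between Brg1 and any other library. MT-ND1, a subunit of respiratory complex I, held 97.4 and 103 RPM in Brg1 and 1211 and 1171 in input, a difference of -3.57 (SE 0.11, adjusted p = 6.69e-11), and 642, 1039 and 794 RPM in IgG. MT-ND4 differed by -3.47. The calls against Sfpq hang on single libraries, since without any 1 Brg1 or Sfpq library no row without the suffix was called lower than Sfpq, and those against IgG fell from 180 to 20 and 24 such rows without Brg1 replicate A or B.

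Cytoplasmic ribosomal protein genes were mostly lower in both kinds of row. All 83 rows without the suffix for cytoplasmic ribosomal proteins were lower than input, beside 75.4% of all such rows, with a median of -1.76 beside -0.80. Of 46 .primary rows 32 (69.6%) were lower (20 under TMM scaling) and 1 (2.17%) higher, with a median of -0.68 beside 0.54. Over all .primary rows 11.3% were lower and 53.9% higher. RPLP1, a protein of the ribosomal stalk, held 77.0 and 85.5 RPM in Brg1, 645 and 615 in input and 160, 287 and 342 in IgG, and differed from input by -2.95 (SE 0.11, limma adjusted p = 5.14e-10). RPS12 and RPS28 differed by -2.93 and -2.77. The sum over the 83 rows was 1.10% and 1.24% of the reads in Brg1, 4.01% and 3.97% in input and 1.51%, 1.37% and 2.82% in IgG. In Sfpq it was 1.29% and 0.902%, and 0 of the 83 rows were called lower in Brg1 than in Sfpq. Within the 46 genes with both rows, the ratio of the .primary row to the other was higher in 41 and lower in 1. Its median difference was 1.13, as over all genes with both rows. Of 81 rows for nuclear-encoded subunits of oxidative phosphorylation 78 (96.3%) were lower and none higher, beside 75.4% of all rows without the suffix, with a median of -1.06 beside -0.80. Their 47 .primary rows were divided, with 10 (21.3%) higher and 13 (27.7%) lower, beside the 53.9% and 11.3% of all .primary rows. With within-type shares 9 of the 81 rows were higher and 32 lower, and 3 of the 47 .primary rows were higher and 30 lower. UQCR11, a small subunit of complex III, differed by -2.19, while SDHA.primary, of the flavoprotein of complex II, was higher by 1.48. Of 31 rows without the suffix for abundant genes of glycolysis, the cytoskeleton and protein folding or synthesis 27 (87.1%) were lower and none higher. Over all rows without the suffix 75.4% were lower. The median of the 31 rows was -0.50, less low than the -0.80 of all such rows. With within-type shares 18 were higher and 6 lower, and under TMM scaling 15 were lower. Of the 17 .primary rows 4 (23.5%) were higher and 2 (11.8%) lower, again beside 53.9% and 11.3% of all .primary rows. EEF1A1, the elongation factor that delivers aminoacyl-tRNA, differed by -1.64, and TMSB10, an actin-binding peptide, by -1.80, more than the median of the list.

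Rows without the suffix for immediate early genes, hosts of small nucleolar RNAs and histones were mostly lower, as were 75.4% of all rows of that kind at a median of -0.80. All 23 rows for immediate early genes were lower (4 with within-type shares), with a median of -0.92, among them FOSL2 by -2.45 and JUND by -1.58, and none of the 5 .primary rows of these genes passed in either direction. Of 16 rows for hosts of small nucleolar RNAs 14 were lower (7 with within-type shares), at a median of -1.16, SNHG16 by -2.36 and SNHG5 by -2.18. Of 59 histone rows without the suffix 52 were lower and 2 higher (15 and 9 with within-type shares), at a median of -0.88, one of them HIST2H2BB by 2.03, a copy whose reads could be shared with its family. The .primary rows of H2AFY and H2AFY2, which encode macroH2A, were higher by 1.98 and 1.93, and that of H2AFX lower by -1.69.

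Androgen-regulated and luminal genes were higher in their .primary rows. All 10 .primary rows examined were higher (6 with within-type shares), beside 53.9% of all .primary rows, with a median of 1.46 beside 0.54. Of 13 rows without the suffix 10 (76.9%) were lower (3 with within-type shares) and none higher, near the 75.4% of all such rows, and their median of -0.80 was that of all such rows. ZBTB16.primary, of a transcription factor induced by androgen, was higher than input by 1.96 and than IgG by 1.67 (adjusted p = 0.027). In rows without the suffix, ELL2, a transcription elongation factor, was lower by -2.19 and HOXB13, a prostate homeobox factor, by -1.42.

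For splicing regulators, which bind or modify pre-mRNA, the log2 ratio of the .primary row to the other had a median difference of 0.19 over 39 such genes. Of these, 10 were higher and 2 lower. Over all genes with both rows the median was 1.13, with 69.6% higher and 0.97% lower. Of their 39 .primary rows 6 (15.4%) were higher and 16 (41.0%) lower, at a median of -0.23, beside 53.9% and 11.3% of all .primary rows. TMM scaling moved these counts to 11 and 10, and within-type shares to 3 and 33. Of their 43 rows without the suffix 1 was higher and 31 (72.1%) lower, beside 75.4% lower over all such rows. Their median was -0.46 beside -0.80. These counts were 3 and 19 under TMM scaling and 30 and 4 with within-type shares. HNRNPH1, chosen after its values were seen, had 21.8% and 20.9% of its reads on the .primary row in Brg1 and 32.0% and 28.4% in input, while HNRNPD went the other way, with 58.8% and 53.9% against 23.2% and 22.1%. HNRNPD.primary was higher in Brg1 than in input by 1.55, than in IgG by 2.58 (limma adjusted p = 0.0034) and than in Sfpq by 2.28 (adjusted p = 0.042). Of the 39 .primary rows it was the only 1 called higher than IgG, and 2 were called higher than Sfpq. Over all .primary rows 9.6% and 1.65% were. The calls above Sfpq over all .primary rows fell from 193 to 45 under TMM scaling. For SRSF3, the serine- and arginine-rich factor, the .primary row held a mean of 12.7% of the reads in Brg1 and 14.7% in input, and the ratio differed by -0.23 (SE 0.22, adjusted p = 0.345).

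**Figure D5:**
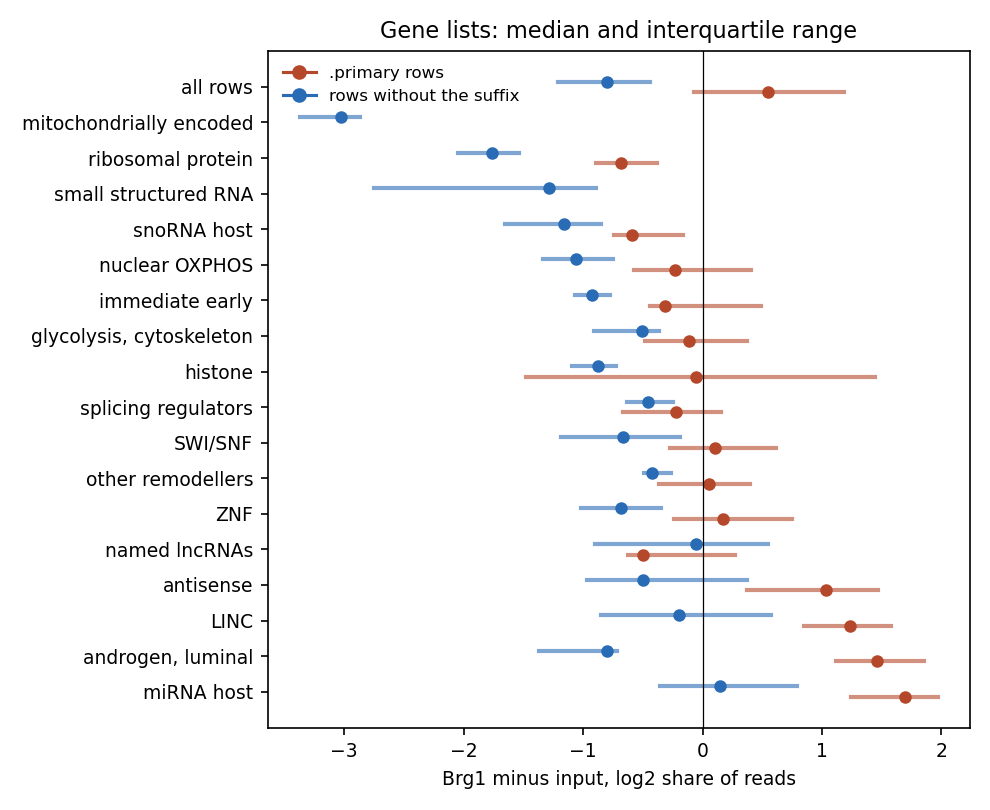
Median (point) and interquartile range (line) of the log2 difference in share, Brg1 minus input, for each gene list and row type, with all rows at the top. Mitochondrially encoded RNAs lie lowest, at a median of -3.03, and .primary rows of microRNA hosts highest, at 1.70.

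Besides MED26.primary, the largest rises among .primary rows were PMS2P6, SPDYE2, TNFAIP8L3 and SHB, the first 2 of which belong to families of close copies and are uncertain. SHB.primary, of an adaptor protein of tyrosine kinase signalling, held 188 and 195 RPM in Brg1, 17.3 and 5.67 in input, 78.7, 65.1 and 28.5 in IgG and 0 and 19.4 in Sfpq, and was higher than input by 4.20 (SE 0.31, limma adjusted p = 4.05e-08). Its other row was lower, at 4.42 and 5.41 RPM against 12.1 and 12.3. TNFAIP8L3.primary had 83.9 and 85.6 RPM in Brg1 but 23.0 and 0.0624 in the inputs, so that the inputs themselves lay far apart. The largest falls were EEF1AKMT2, RPL13, RGPD6, MZF1 and ZGPAT, of which EEF1AKMT2.primary, of a lysine methyltransferase, held 0.505 and 0.398 RPM in Brg1 and 37.0 and 27.9 in input. Among rows without the suffix, TNRC18P1, MIR663AHG, KCNQ1OT1 and LINC00910 followed SMARCA4 upward, and MTND1P23, RN7SL1, ZIC5, RN7SL2 and OVCA2 fell most. MTND1P23 is a pseudogene copy of a mitochondrial gene and could share its reads.

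Against the control antibody, fewer rows passed. Of .primary rows 1121 (9.6%) were higher and 27 (0.231%) lower in Brg1 than in IgG, and of rows without the suffix 671 (6.18%) were higher and 180 (1.66%) lower (limma on 9 libraries). Leaving out a single Brg1 or IgG library moved the count of .primary rows higher to between 567, without Brg1 replicate A, and 3124, without IgG replicate A. Against Sfpq, 193 .primary rows (1.65%) were higher and 10 (0.0856%) lower, and 15 rows without the suffix (0.138%) were higher and 207 (1.91%) lower. Without Brg1 replicate A or B or Sfpq replicate A, 7 .primary rows were higher, and without Sfpq replicate B 5 were. A floor of 3 reads corresponds to 0.678, 1.71 and 6.11 RPM in the IgG libraries (A to C) and to 0.0631 and 0.0663 RPM in Brg1.

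In LNCaP, whose table was scaled separately and which is given as a description, the rows called in 22Rv1 lay mostly on the same side. Of 5296 .primary rows that were higher in 22Rv1 and present in LNCaP, both Brg1 libraries were above both inputs in 3916 (73.9%) and below in 56 (1.06%), where over all 10021 .primary rows they were above in 42.1%. Of 7250 rows without the suffix that were lower, both were below in 4278 (59.0%), beside 50.7% of all 9377 such rows. They were above in 598 (8.25%), beside 13.7% of all such rows. By list, both were below in 17 of 18 mitochondrially encoded rows and 74 of 82 ribosomal protein rows without the suffix. Nuclear oxidative phosphorylation had 16 of 81 below and 11 above. Some lists lay more often above, with 17 above and 3 below of 31 for glycolysis and cytoskeleton. These were 10 and 4 of 52 for histones and 14 and 11 of 43 for splicing regulators. In LNCaP both inputs were at 0 for MED26.primary, as in 22Rv1, and for SHB.primary, which had reads in both 22Rv1 inputs. The LNCaP Brg1 libraries held 46.5 and 73.3 RPM of MED26.primary and 106 and 130 RPM of SHB.primary.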

How the data were processed

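RNA immunoprecipitation libraries of 22Rv1 were analysed from a deposited table of normalized counts, a signal that the authors scaled by 1 factor per library. The submitters' processing notes name STAR 2.6, Salmon 0.8.2, deepTools 2.5.2, DESeq2 and the build hg38, without their roles; per the labels, ERCC spike-in RNA was added before ribosomal depletion and stranded library preparation. How the factors were chosen is not given in the sources used here. Each column was divided by its smallest positive value, after which every value was whole within 0.01 read; in the 4 Brg1 and input columns few values are low enough to check the step independently.

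Shares are reads per 1000000 recovered reads (RPM). Rows with a mean share of at least 1 RPM (5 rows were left out) were tested with limma 3.58.1 (R 4.3.3, eBayes with trend) on log2(share + 0.5), which understates changes of low rows, with Benjamini-Hochberg adjustment over all rows tested. Brg1 against input used 4 libraries; Brg1 against IgG or Sfpq used 9. The steps were tested on simulated data. Floors of 3 reads cover counting error only, because no molecular identifiers separate molecules from their copies. Of 14292 gene names tested, 12849 matched RefSeq (GRCh38.p14), which gave spans and positions.

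Members, lists, and the fit on 2 groups were chosen with earlier results of these data known. Named rows were the 5 largest changes in each direction and row type with a mean share of at least 5 RPM and no overlap, the 5 genes with the largest ratio changes each way, and members of the lists by size of change; exceptions are stated. Some genes are not reported here and were left out of the lists and marker sums. The alternatives were pseudocounts of 0.1 and 2, other minimum shares, all 9 libraries in a fit, a replicate block, TMM and median-of-ratios factors, shares within each row type, the deposited scale, edgeR 4.0.16 and DESeq2 1.42.0 on recovered reads, and leaving out each library.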

Additional observations from a re-analysis of the deposited data

How the results depend on the processing

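Under TMM factors, median-of-ratios factors, edgeR (TMM) and DESeq2, 620, 609, 557 and 564 .primary rows were lower in Brg1 than in input and 446, 454, 439 and 445 rows without the suffix were higher. Within each row type, which by construction sets the 2 kinds of row to equal totals, 2655 .primary rows were higher and 4835 lower, and 2544 other rows higher and 2481 lower. At the deposited scale, 1855 .primary rows and 58 others were higher. With all 9 libraries in a fit, 5 and 0 .primary rows, 2 and 6 others, and 0 and 0 ratio genes were higher and lower; IgG adds a far wider spread (median SD 1.84). Leaving out each replicate in turn, the rows without the suffix called lower stayed within 1.5 times 8183, while the .primary rows called lower ran from 662 (without input replicate A) to 1319 and the ratio genes called lower from 49 (the same library) to 108. In genes with both rows alone, the .primary share differed by 24.3 percentage points.

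For Brg1 against IgG, leaving out a library gave 567 to 3124 .primary rows higher and 16 to 204 lower, and 276 to 2370 others higher and 20 to 1301 lower. Against Sfpq the ranges were 5 to 7, 0 to 2, 1 to 4 and 0 to 0, and TMM left 45 .primary rows higher. Whether the replicate letters pair libraries across groups cannot be told here. Across rows, the deviations of Brg1 and input replicates A from their group means correlated at 0.0045. With 2 libraries per group, and IgG and Sfpq not examined, this value cannot decide it. The replicate block gave 2522 and 112 .primary rows and 2141 and 426 others against IgG, and 1130, 35, 33 and 847 against Sfpq, and moved no count against input by over 1.5 times.

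Of 90 named rows, 84 lost their call under at least 1 alternative, and 5 kept the same status, called or not, under all of them. Of 20 named ratio genes, 19 lost it, and the other, SRSF3, was not called in the main fit or under any alternative. The alternatives include the fit of all 9 libraries. In direction, ARID1A (0.21) turned within row types and SMARCA2 (-0.21) at the deposited scale. At the deposited scale ARID1B.primary, DPF3.primary, DLEU2.primary, TTC28.primary, RPL13.primary, MIR29B2CHG and MIR222HG, and within row types TTC28.primary, DLEU2.primary, TUG1, RMRP and HOXB13, were no longer called. DESeq2 no longer called MZF1.primary, OVCA2, TNFAIP8L3.primary, ZGPAT.primary and ZIC5, and HNRNPH1 was not called without Brg1 replicate B; the cause was not tested. A floor of 3 reads is 0.678 to 6.11 RPM in IgG and 0.0631 to 0.0663 RPM in Brg1.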
